A study of Mus musculus with 6 samples.

Results

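The zinc transporter genes described here were 10 genes, chosen by symbol as carriers of zinc in or out of the cytoplasm, out of 53465 genes in the count table. They were 6 genes of the ZIP family (*Slc39a1*, *Slc39a6*, *Slc39a7*, *Slc39a8*, *Slc39a10* and *Slc39a14*) and 4 genes of the ZnT family (*Slc30a1*, *Slc30a5*, *Slc30a6* and *Slc30a9*). All 10 had at least 1 count in 1 pool, and 7 had enough counts to be tested among 11842 tested genes. The samples were 6 pools of metaphase II (MII) oocytes from female Kunming (KM) mice aged 9-10 months, an outbred stock. In 3 control pools the oocytes had matured in vitro for 16 h without quercetin, and in 3 quercetin pools they had matured with this plant flavonoid at 10 μM. Each pool held 15 oocytes from 3 mice, so single oocytes and single animals could not be separated, and both groups consisted of aged oocytes cultured in vitro. The methods state that quercetin was dissolved in DMSO, and do not state whether the control medium held DMSO. The question put to the data was whether quercetin during maturation changed the level of zinc transporter RNA in oocytes from aged mice.

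ZIP proteins move zinc into the cytoplasm from outside the cell or from organelles. Most ZnT proteins move it out of the cytoplasm into organelles or out of the cell, whereas ZnT9 is a mitochondrial exporter. A mouse oocyte takes up zinc as it matures, needs it to hold the arrest at metaphase II, and releases part of it in bursts when the egg is activated. Oocytes make most of their RNA during growth and are nearly silent in transcription during maturation, so the RNA of an MII oocyte is largely what remains of the store laid down earlier, and its poly(A) tails change in length as it is used. In pooled oocytes, fewer oocytes with RNA of a gene and less of that RNA in each oocyte cannot be told apart.

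Total counts ran from 7880467 to 9938743 per pool, and levels are given in CPM, the counts of a gene per 1000000 counts of the pool, with pool totals scaled by the trimmed mean of M values (TMM). A gene at 3 counts, the floor used here, was at 0.329 to 0.376 CPM. All 10 oocyte marker genes were detected, and their summed level ran from 16152 to 20221 CPM in the controls and from 17702 to 19405 CPM after quercetin. *Gdf9* and *Oosp1* made up most of that sum, and single markers varied more, with *Zp2* between 131 and 1560 CPM. *Ooep* averaged 718 ± 242 CPM in the controls and 381 ± 222 CPM after quercetin (unadjusted p of 0.0412, adjusted p of 0.988 by edgeR's quasi-likelihood test). By that test 4.03% of all tested genes had an unadjusted p under 0.05. The fitted change was upward for 5 of the 10 oocyte markers and downward for 5. *Gdf9* was at 5583 to 5864 CPM in the controls and 6007 to 7504 CPM after quercetin. Quercetin pools stood above all control pools in this way for 5.42% of tested genes. Of 12 cumulus and granulosa cell markers, *Amh*, *Amhr2*, *Foxl2* and *Ptx3* had 0 counts in every pool. The sum of the 12 ran from 62.4 to 77.2 CPM in the controls and from 78.2 to 86.8 CPM after quercetin, without overlap, and most of it was *Cyp19a1*, the aromatase gene, at 58.4 to 68.9 CPM and 73.1 to 75.9 CPM. Of 8 blood and endothelial markers, 3 had counts and 5 had 0 counts in every pool. The sum ran from 30.1 to 34.8 CPM in the controls and from 33.1 to 38.1 CPM after quercetin. Nearly all of it was *Pecam1*, at 29.9 to 34.7 CPM and 32.8 to 37.5 CPM. Whether RNA of other cells had a part in the zinc transporter values was not tested.

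The RNA of 1 importer stood above all other members. *Slc39a10* encodes ZIP10, an importer of the plasma membrane, and alone took 71.8% to 77.8% of the counts of all 10 members in each pool and 88.0% to 92.5% of the ZIP counts. The gene (ENSMUSG00000025986) lies on the minus strand of chr1:46807544-46892852 in GRCm38. Per kilobase of exon, its level averaged 67.9 CPM per kb over the 6 pools, with a range of 58.2 to 82.6, which was above 93.0% of the 11814 tested genes with an annotated length. *Slc39a6*, which encodes the related plasma membrane importer ZIP6, followed at 9.53 CPM per kb with a range of 6.49 to 12.9. *Slc30a5*, whose product ZnT5 carries zinc into the secretory pathway, was at 9.26 CPM per kb with a range of 8.28 to 10.1. The ranges of *Slc39a6* and *Slc30a5* overlapped, and *Slc39a10* was 7.13-fold above *Slc39a6* on this scale.

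**Figure D1:**
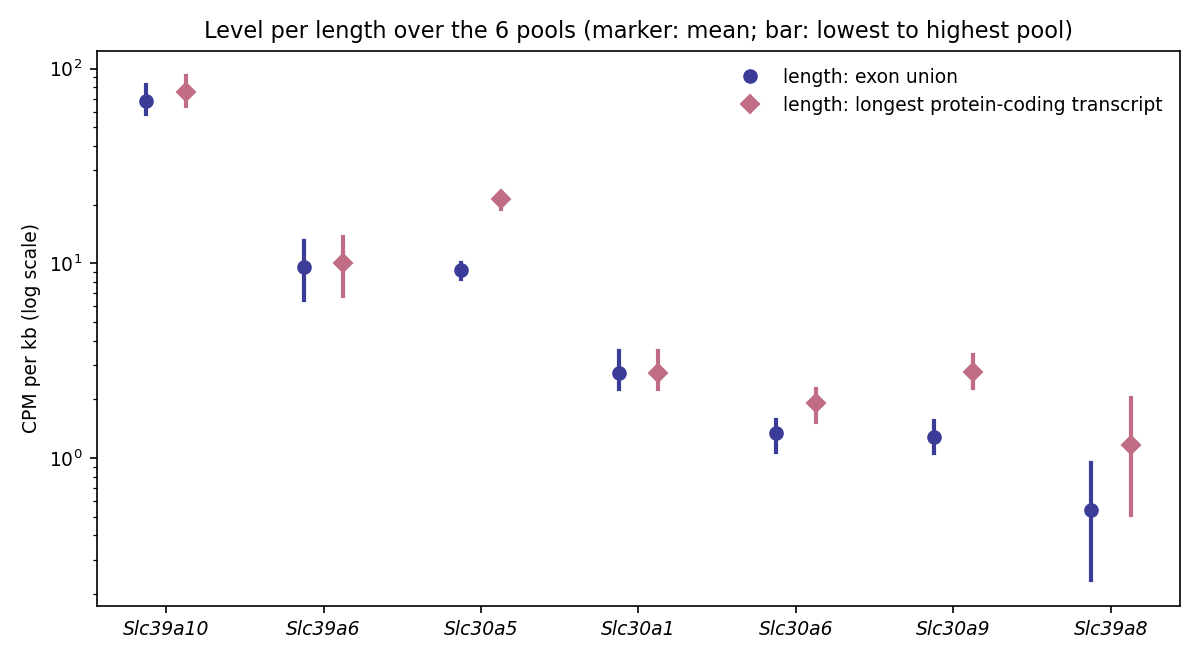
Level of the 7 tested zinc transporter genes in CPM per kb (log axis), with the mean of the 6 pools as a marker and the lowest to highest pool as a bar, for the union of exons (circles) and the longest protein-coding transcript (diamonds) as the length. *Slc39a10* stands highest on both lengths at 67.9 and 75.3, and *Slc30a5* moves from 9.26 to 21.2.

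Below these, *Slc30a1*, the exporter gene of the plasma membrane, averaged 2.73 CPM per kb and stood above 45.8% of tested genes. *Slc30a6*, which encodes the partner of ZnT5, averaged 1.34 CPM per kb, and *Slc30a9* averaged 1.28 CPM per kb, with ranges that overlapped. *Slc39a8*, which encodes ZIP8, an importer of zinc and manganese, averaged 0.540 CPM per kb and stood above 13.1% of tested genes. The order changed with the length used. With the longest protein-coding transcript as the length, *Slc39a10* was still highest at 75.3 CPM per kb and *Slc30a5* at 21.2 CPM per kb stood above *Slc39a6* at 10.0 CPM per kb. On that length *Slc30a9* was at 2.77, *Slc30a1* at 2.73, *Slc30a6* at 1.92 and *Slc39a8* at 1.17 CPM per kb, and the ranges overlapped between *Slc30a9* and *Slc30a1* and between *Slc30a6* and *Slc39a8*.

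The other 3 members had almost no counts in these pools. *Slc39a1*, which encodes the broadly expressed importer ZIP1 (chr3:90248172-90253612, plus strand), had 0 counts in all pools but quercetin pool 3, which had 2. *Slc39a7*, whose product ZIP7 releases zinc from the endoplasmic reticulum (chr17:34028269-34031682, minus strand), had 1 count in control pool 3 and 0 counts in the rest. Reads of both could be ambiguous in counting. Of the 31-base words of *Slc39a1*, 27.7% occur in transcripts of other genes, among them the pseudogene *Slc39a1-ps*. Of the exon length of *Slc39a7*, 80.7% is overlapped by *Gm20427*, a readthrough gene on the same strand. *Gm20427* itself had 5, 2 and 1 counts in the controls and 1, 3 and 1 after quercetin. *Slc39a1-ps* had 1 count in control pool 2 and 0 counts in the rest. How reads that match several genes were handled is not given in the sources used here, so the counts of *Slc39a1* and *Slc39a7* are uncertain. *Slc39a14*, which encodes ZIP14, an importer of zinc and iron (chr14:70303469-70351425, minus strand), had 6, 1 and 3 counts with no treatment and 0, 1 and 2 counts with quercetin, and the groups overlapped. These 3 genes were not tested and no fold is given for them.

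The 3′ ends of the members were read for the sequences that govern tail length in oocytes, because the library kit copied polyadenylated RNA. The longest protein-coding transcript of each member was searched for the polyadenylation hexamer (AATAAA or ATTAAA) in its last 50 bases. The 100 bases before the hexamer were searched for a cytoplasmic polyadenylation element (TTTTAT or TTTTAAT, transcript strand), and the match nearest the hexamer was kept. Other annotated 3′ ends were not read, and which 3′ ends these oocytes used was not tested. All 10 members, the 7 tested and the 3 untested, had the hexamer, against 80.2% of 9819 tested genes with a protein-coding transcript. Of the 7 tested members 1, *Slc39a10*, had the element, against 18.2% of those genes, and so did the untested *Slc39a7* and *Slc39a14*. The 3 matches began 38 bases, 44 bases and 21 bases before the hexamer in *Slc39a10*, *Slc39a7* and *Slc39a14*. The lines that follow give them from the minus strand of GRCm38, 5′ to 3′, at chr1:46807585-46807614, chr17:34028326-34028355 and chr14:70303490-70303519, as the member with most RNA and 2 members with almost none share the same 6 bases, which are in capitals. A match is a description of the letters and not a site in use.
Slc39a10: agtggtgtgtcaTTTTATatatgttcctaa
Slc39a7: tgtctctactcaTTTTATaccactgtttga
Slc39a14: gaactgtaaatgTTTTATttgtaagattct

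Control and quercetin pools were compared with edgeR's quasi-likelihood test over all 11842 tested genes. Of the 7 tested members, 0 met the criteria taken from the study, a more than 2-fold difference with a Benjamini-Hochberg adjusted p under 0.05, and of all tested genes 0 (0%) met them. The study itself reported both up-regulated and down-regulated genes at these thresholds, and its methods do not name the test used for RNA-seq. At an unadjusted p under 0.05 the count was 0 of 7 members, against 477 genes (4.03%). By DESeq2, 12 genes met the criteria, 0 of them members, and no adjusted p was given for *Slc39a8* and *Slc30a6*. The log2 fold changes, quercetin over control, ran from -0.41 to 0.36 with a median of -0.0096, and 3 were positive and 4 negative. Over all tested genes the median was -0.026, with 5490 positive and 6352 negative. Adjusted p-values of the members were 0.988 to 0.999.

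**Figure D2:**
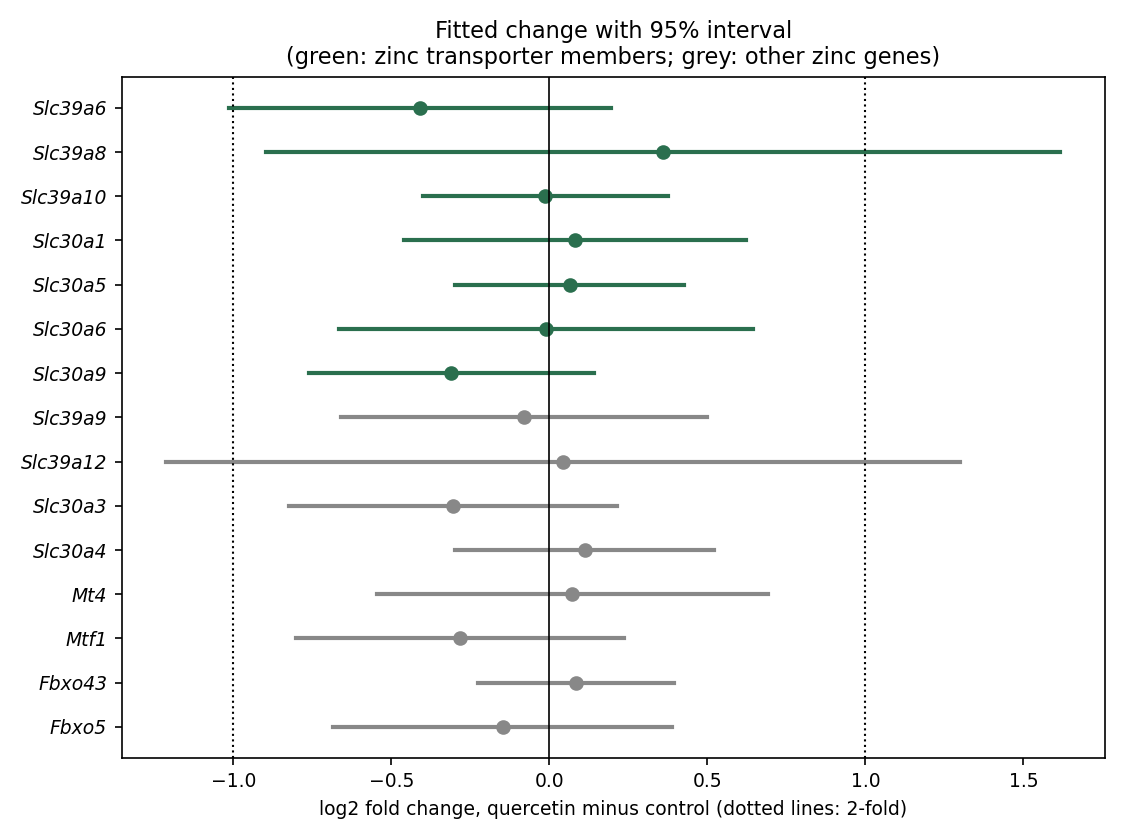
Log2 fold change, quercetin over control, with its 95% interval from edgeR's quasi-likelihood fit, for the 7 tested zinc transporter genes (green) and the 8 other tested zinc genes (grey), with dotted lines at a 2-fold difference. Every interval drawn includes 0, and among the zinc transporter genes the widest is that of *Slc39a8*, from -0.90 to 1.62.

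*Slc39a10* was at 362, 436 and 450 CPM in control replicates 1, 2 and 3 and at 379, 355 and 503 CPM in quercetin replicates 1, 2 and 3. The groups overlapped, and the highest pool and the lowest pool were both quercetin pools. The means were 416 ± 47.3 and 412 ± 79.8 CPM (SD, n = 3 pools each), a log2 fold change of -0.013 (SE 0.17, 95% interval -0.40 to 0.38, exact permutation p = 0.9). As a ratio the interval ran from 0.757-fold to 1.30-fold. With DESeq2's size factors the sign turned, at 0.0047.

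*Slc39a6* (ENSMUSG00000024270, chr18:24579881-24603817, minus strand) gave 34.1, 52.7 and 46.1 CPM in the controls and 26.4, 27.6 and 45.9 CPM after quercetin. Quercetin pools 1 and 2 stood below all control pools, and quercetin pool 3 stood within the control range. The means were 44.3 ± 9.41 and 33.3 ± 10.9 CPM (SD, n = 3 pools each), with a log2 fold change of -0.41 (SE 0.27, 95% interval -1.01 to 0.19, exact permutation p = 0.2). Single pools moved this value in both directions. It was -0.27 without control pool 2 (unadjusted p of 0.404 by edgeR's quasi-likelihood test), -0.27 without quercetin pool 1 (0.386) and -0.29 without quercetin pool 2 (0.355). It was -0.71 without quercetin pool 3, with an unadjusted p of 0.0147 and an adjusted p of 0.297, where 12.8% of tested genes had an unadjusted p under 0.05. *Slc39a8* (ENSMUSG00000053897, chr3:135825279-135888572, plus strand) had few counts, with 20, 57 and 16 in the controls and 33, 24 and 61 after quercetin. The pools of the groups were interleaved, with control pool 2 and quercetin pool 3 high. The means were 3.63 ± 2.80 and 4.65 ± 2.32 CPM (SD, n = 3 pools each), with a log2 fold change of 0.36 (SE 0.56, 95% interval -0.90 to 1.62, exact permutation p = 0.5). The value was 1.19 without control pool 2 and -0.098 without quercetin pool 3.

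**Figure D3:**
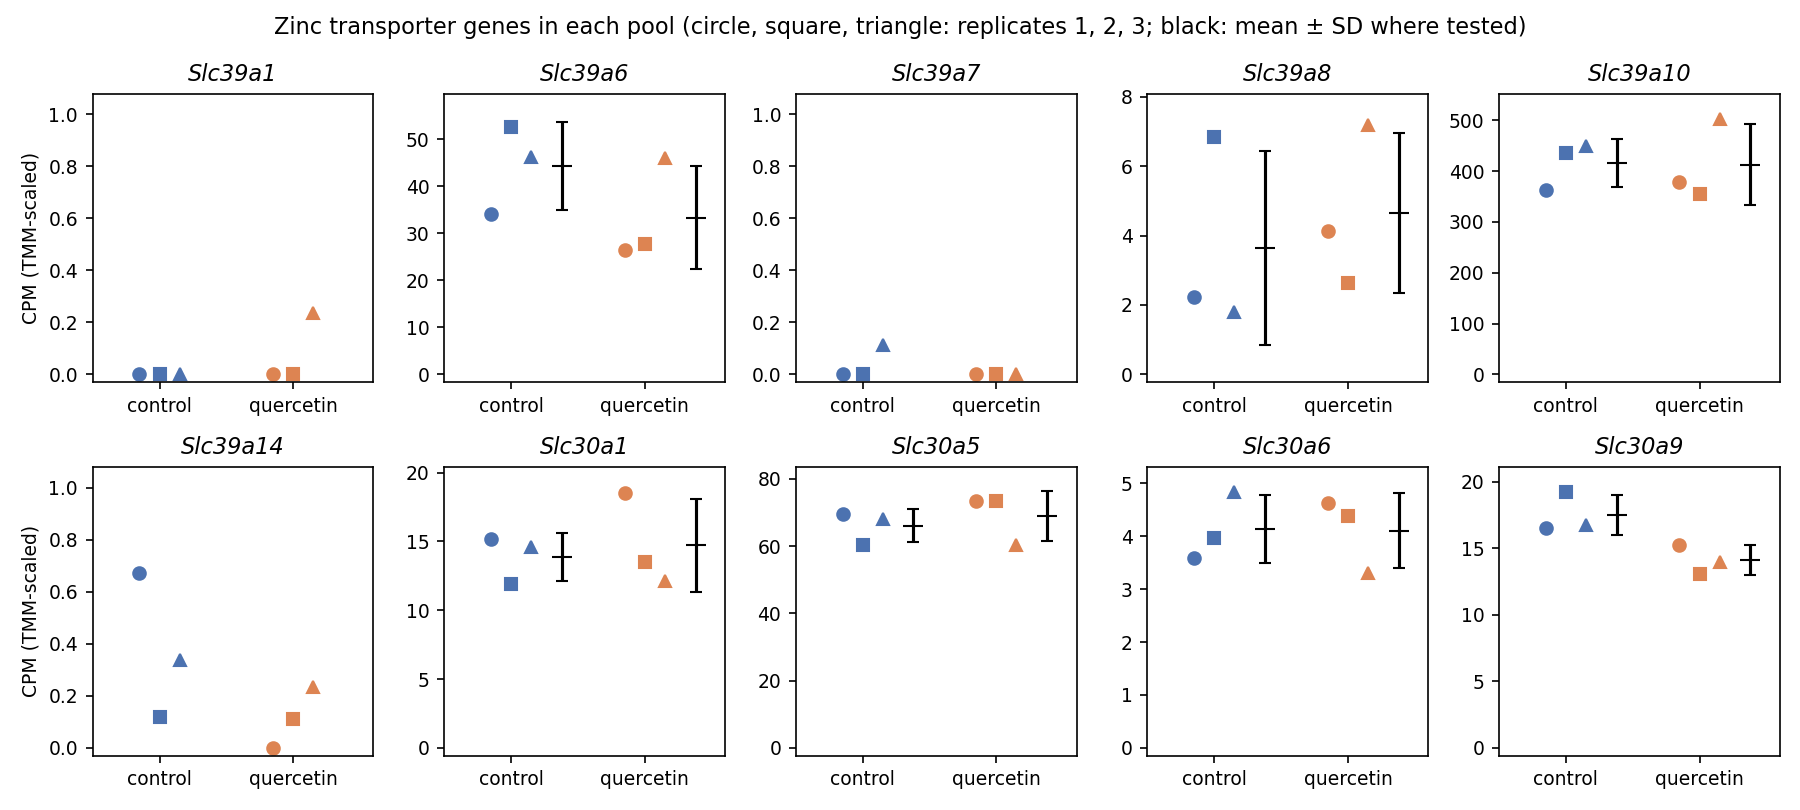
TMM-scaled CPM of each zinc transporter gene in the 3 control pools and 3 quercetin pools, with the mean and SD of each group for the 7 tested genes. The pools of *Slc30a9* do not overlap between groups, with control pools from 16.5 to 19.2 and quercetin pools from 13.1 to 15.3.

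The 4 ZnT genes were all tested, and 3 of them overlapped between the groups. *Slc30a1*, encoding ZnT1 (chr1:191906767-191913247, plus strand), gave 15.1, 11.9 and 14.6 CPM in the controls and 18.5, 13.5 and 12.1 CPM after quercetin, so the groups overlapped around means of 13.9 ± 1.74 and 14.7 ± 3.38 CPM (SD, 3 pools each). The log2 fold change was 0.082 (SE 0.24, 95% interval -0.46 to 0.62, exact permutation p = 0.8). Of its exon length, 8.92% overlaps *1700034H15Rik* on the other strand. *Slc30a5* (chr13:100802648-100833427, minus strand) gave 69.7, 60.5 and 68.0 CPM in the controls and 73.4, 73.4 and 60.4 CPM after quercetin, again with overlap, around means of 66.0 ± 4.90 and 69.1 ± 7.51 CPM. The log2 fold change was 0.064 (SE 0.16, 95% interval -0.30 to 0.43, exact permutation p = 0.6). *Slc30a6* (chr17:74395608-74424221, plus strand) had 32, 33 and 43 counts in the controls and 37, 40 and 28 after quercetin, with the groups overlapping at 4.13 ± 0.640 and 4.11 ± 0.713 CPM. Its log2 fold change was -0.0096 (SE 0.29, 95% interval -0.66 to 0.65, exact permutation p = 1).

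*Slc30a9* was the member whose pools did not overlap. This gene, whose product ZnT9 is a mitochondrial zinc exporter (chr5:67306955-67358443, plus strand), gave 16.5, 19.2 and 16.8 CPM in the controls and 15.3, 13.1 and 14.0 CPM after quercetin. All quercetin pools stood below all control pools, with means of 17.5 ± 1.51 and 14.1 ± 1.12 CPM (SD, n = 3 pools each). The log2 fold change was -0.31 (SE 0.20, 95% interval -0.76 to 0.14), with an unadjusted p of 0.154 and an adjusted p of 0.988 by edgeR's quasi-likelihood test, so the call was not made. The exact permutation p of 0.1 is the smallest that 3 pools against 3 allow. Over all tested genes, 612 (5.17%) had quercetin pools below all control pools and 642 (5.42%) had them above, and among the 7 members 1 stood below and 0 stood above. The summed cumulus and granulosa markers, most of which was *Cyp19a1*, also did not overlap between the groups. The sum was at up to 77.2 CPM in the controls and at least 78.2 CPM after quercetin. Of the 2 of these markers tested, *Cyp19a1* did not overlap (unadjusted p of 0.183 by edgeR's quasi-likelihood test) and *Has2* overlapped. Among the untested ones, *Fshr* averaged 1.33 CPM in the controls and 1.02 CPM after quercetin, with overlap. *Tnfaip6* had 0 counts in the controls and 2, 8 and 4 counts after quercetin. The part of these markers in the *Slc30a9* values was not tested.

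Summed over the families, the ZIP genes were at 464 ± 56.6 CPM in the controls and 450 ± 93.0 CPM after quercetin, and the ZnT genes at 102 ± 5.19 and 102 ± 11.2 CPM (SD, n = 3 pools each). The ratio of ZIP counts to ZnT counts needs no scaling between pools, and was 3.80, 5.18 and 4.79 in the controls and 3.66, 3.69 and 6.20 after quercetin (exact permutation p = 0.8). The lowest ratios and the highest were all in quercetin pools. The ZnT sums and the ratio include *Slc30a9*, whose product is a mitochondrial exporter, so they compare families and not directions of transport. The members together took 0.0449% to 0.0677% of all counts.

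The pools also differed in a way the groups did not explain. The first principal component of all tested genes took 32.4% of the variance and placed quercetin pools 1 and 2 at -37.9 and -30.9, control pools 1 and 3 at -3.34 and 10.1, and quercetin pool 3 and control pool 2 at 30.8 and 31.3. In that order *Slc39a6* was at 26.4, 27.6, 34.1, 46.1, 45.9 and 52.7 CPM, *Slc39a10* was at 379, 355, 362, 450, 503 and 436 CPM, and *Slc30a5* was at 73.4, 73.4, 69.7, 68.0, 60.4 and 60.5 CPM. *Slc39a6* was lowest, and *Slc30a5* highest, in quercetin pools 1 and 2. *Slc30a1* was at 18.5, 13.5, 15.1, 14.6, 12.1 and 11.9 CPM. *Slc39a8* (33, 24, 20, 16, 61 and 57 counts), *Slc30a6* (4.64, 4.39, 3.59, 4.84, 3.30 and 3.97 CPM) and *Slc30a9* (15.3, 13.1, 16.5, 16.8, 14.0 and 19.2 CPM) went up and down along it. The ZIP to ZnT ratio was 3.66, 3.69, 3.80, 4.79, 6.20 and 5.18. TMM factors differed along this order too, from 0.946 and 0.920 in the lowest pools to 1.05 and 1.06 in the highest. The labels name no batch, and what the component reflects was not tested.

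**Figure D4:**
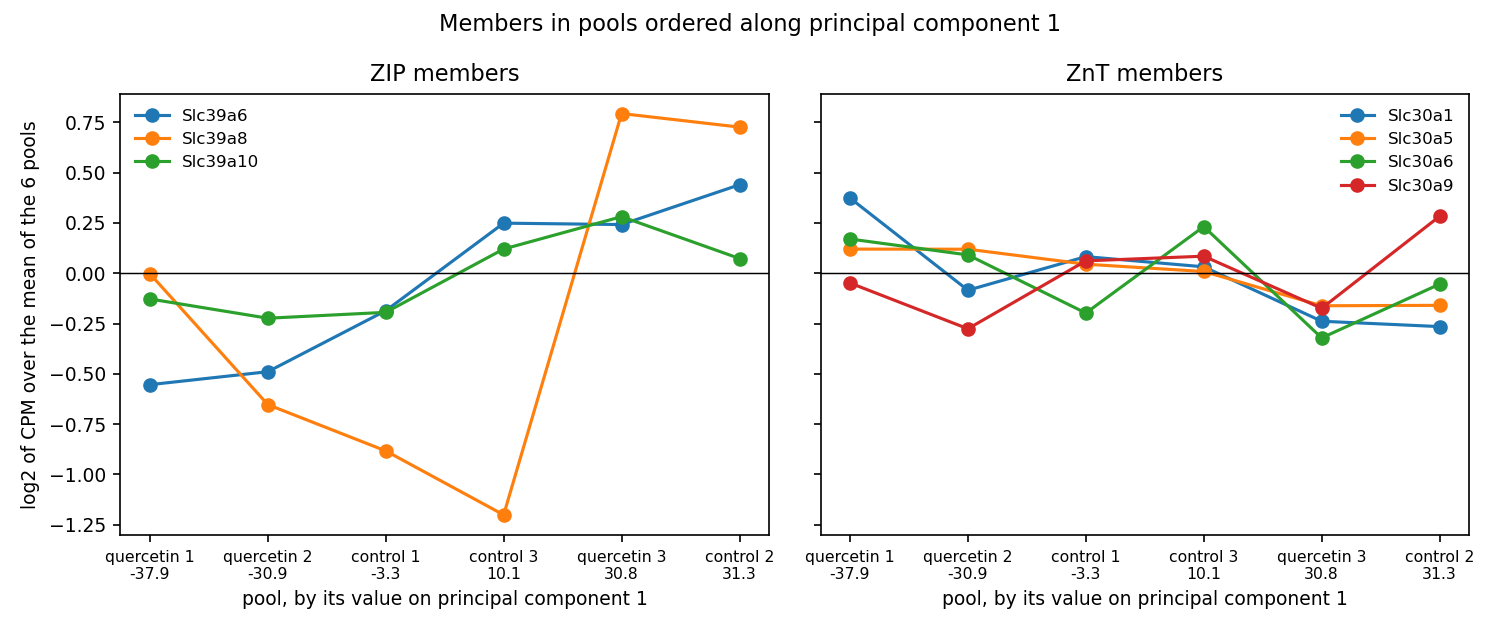
Log2 of the CPM in each pool over the mean of the 6 pools, for the tested ZIP genes (left) and ZnT genes (right), with pools in order of their score on the first principal component, which is printed under each pool. *Slc39a6* is lowest in quercetin pools 1 and 2 and highest in control pool 2, whereas *Slc39a8*, *Slc30a6* and *Slc30a9* go up and down along the order.

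The promoters of the members were searched for the core of the metal response element, TGCACNC or TGCGCNC on either strand, the sequence bound by MTF1, the zinc-sensing factor that turns on *Slc30a1* and the metallothioneins. Of 8 members with a RefSeq window of 250 bases before the start (GRCm38.p6), 3 held a match in a window, *Slc30a1*, *Slc30a5* and *Slc39a8*. *Slc39a8* had a match in its window at chr3:135825407-135825656 and none in that at chr3:135825029-135825278. Of 32851 windows of all genes, 21.4% held a match. That share counts windows and not genes, and some members had more than 1 window, so the 2 figures are not alike. The window of *Mt2*, the metallothionein gene long used as a zinc response marker, had 3 matches, and 1.26% of windows had 3 or more. Those of *Mt1* and *Mt4* had 1 match each, and that of *Mtf1* had 0. The windows of *Slc30a1* (plus strand of chr1:191906531-191906780) and *Slc30a5* (minus strand of chr13:100833428-100833677) are shown because these were the 2 ZnT members with a match, 5′ to 3′ on the gene's own strand with the match in capitals. The letters do not say that MTF1 was bound.
Slc30a1: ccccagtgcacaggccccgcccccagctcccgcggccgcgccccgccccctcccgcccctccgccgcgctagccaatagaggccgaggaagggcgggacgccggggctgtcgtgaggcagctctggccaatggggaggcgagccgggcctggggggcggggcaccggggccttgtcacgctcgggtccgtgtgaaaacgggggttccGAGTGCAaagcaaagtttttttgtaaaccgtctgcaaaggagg
Slc30a5: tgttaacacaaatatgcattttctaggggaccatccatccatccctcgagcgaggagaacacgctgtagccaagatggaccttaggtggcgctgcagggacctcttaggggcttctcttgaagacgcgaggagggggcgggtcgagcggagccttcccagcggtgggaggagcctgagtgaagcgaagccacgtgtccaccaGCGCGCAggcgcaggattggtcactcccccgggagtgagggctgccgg

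Of 21 other genes of zinc transport and handling, 8 were tested, and 0 met the criteria, 0 had an unadjusted p under 0.05 by edgeR's quasi-likelihood test and 0 had pools without overlap. *Fbxo43*, encoding EMI2, the zinc-binding inhibitor that keeps the anaphase-promoting complex off at metaphase II, averaged 176 ± 15.4 CPM in the controls and 187 ± 11.0 CPM after quercetin (SD, 3 pools each). *Fbxo5*, encoding the related inhibitor EMI1, was at 55.3 ± 7.74 and 49.9 ± 15.5 CPM. *Mtf1* was at 46.8 ± 4.01 and 38.5 ± 11.5 CPM, with a log2 fold change of -0.28 that ran from -0.55 to -0.14 with 1 pool left out. Without quercetin pool 3, *Mtf1* (-0.55, unadjusted p of 0.0137), *Slc30a3* (-0.50, 0.0463) and *Fbxo5* (-0.43, 0.0483) were under 0.05 by edgeR's quasi-likelihood test, with adjusted p-values of 0.290 to 0.389, in a setting where 12.8% of tested genes were. *Slc30a4*, whose product loads zinc into vesicles, was at 54.6 ± 4.92 and 59.0 ± 9.42 CPM, and *Slc30a3* at 16.9 ± 1.70 and 13.7 ± 3.00 CPM. *Slc39a9* was at 7.24 ± 0.051 and 6.84 ± 1.45 CPM. *Mt4* was at 12.1 ± 1.66 and 12.8 ± 3.87 CPM, whereas *Mt1* had 8, 7 and 6 counts in the controls and 7, 4 and 3 after quercetin.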

How the data were processed

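RNA from 6 pools of MII oocytes (3 control, 3 quercetin) was sequenced after copying with the Smart-seq HT kit. The authors deposited counts, whole numbers of reads on each of 53465 Ensembl genes per pool, without normalization. The methods name Hisat2 and GRCm38.91, whereas the submitters' processing notes name CASAVA 1.8 and TopHat2 2.0.6 with mm10 and GRCm38. The counting program and its handling of strand and of reads matching several genes are not given in the sources used here. Where antisense or other genes overlap, the gene that a shared read came from cannot be told. Symbols were matched for 53274 identifiers, and coordinates and lengths came from GENCODE M21 on GRCm38.

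Genes passing filterByExpr (minimum count 10) were scaled by TMM and tested with edgeR 4.0.16 under R 4.3.3 (glmQLFit, then glmQLFTest, group as the only term), and p-values were adjusted by Benjamini-Hochberg over the whole tested table. SEs are the fold change divided by the square root of F, and intervals are 95%. Per-gene exact permutation tests on log2 CPM (prior count 2) and on ratios were two-sided. Replicates follow the labels, and whether pools of the groups shared mice or handling was not stated, so p-values measure the spread between these pools. Reads carried no molecular identifiers, so floors cover counting error only. The fit was tested on simulated counts, and the outcome is not given here.

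The members, gene lists and motifs were chosen with earlier results of these data known. All members were named, and of the other zinc genes those with a mean of at least 5 CPM, an unadjusted p under 0.05 or pools without overlap. *Mt1*, *Mt2*, *Gm20427*, *Slc39a1-ps*, *1700034H15Rik*, *Gm45774* and the single cell type markers named fall outside that rule and were chosen after their values were seen. Alternatives were DESeq2 1.42.0, other scalings and count filters, a replicate block, each pool left out in turn, and the longest protein-coding transcript as length. Sequences were read with Python 3.11.15, and plots drawn with matplotlib 3.10.9. Protein sequences were not used here.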

Additional observations from a re-analysis of the deposited data

How the results depend on the processing

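The count of zinc transporter genes meeting the criteria was 0 in the comparison reported and in all 12 alternatives. Over all tested genes the count was 0 and became 12 with DESeq2, 3 with no filter beyond 1 count in total, and 0 to 7 with each pool left out in turn. Members with an unadjusted p under 0.05 numbered 0 to 1 with a pool left out: *Slc39a8* without control pool 2, where 1.98% of tested genes did so, and *Slc39a6* without quercetin pool 3, where 12.8% did. Members without overlap numbered 1 to 3: *Slc39a6* joined without control pool 1, *Slc39a8* without control pool 2, and *Slc39a6* and *Slc30a5* without quercetin pool 3. Of all tested genes, 20.2%, 16.2% and 31.4% did not overlap in these 3 settings, against 10.6% with all pools. *Slc30a9* did not overlap in any of the 12 alternatives, with log2 fold changes from -0.40 to -0.24. Many of these settings could hardly have changed the overlap. Leaving a pool out keeps separated groups apart, bar small changes in scaling, and the replicate block used the same scaled values. Of 84 member fold changes under alternatives, 69 kept their direction and none passed the threshold, and 15 changed sign. With DESeq2 *Slc39a10* was 0.0047 and *Slc30a6* 0.0071, and with DESeq2's size factors in the edgeR fit 0.0047 and 0.0072. With library size only *Slc30a1* was -0.0074, *Slc30a5* -0.025 and *Mt4* -0.027, where the median of all tested genes was -0.11. With a pool left out the ranges were -0.71 to -0.27 for *Slc39a6*, -0.098 to 1.19 for *Slc39a8*, -0.18 to 0.086 for *Slc39a10*, -0.12 to 0.20 for *Slc30a1*, -0.10 to 0.13 for *Slc30a6*, -0.22 to 0.076 for *Slc39a9*, -0.16 to 0.28 for *Mt4*, -0.55 to -0.14 for *Mtf1*, -0.50 to -0.21 for *Slc30a3* and -0.43 to -0.012 for *Fbxo5*. The cause of these changes was not tested.

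Same-numbered pools correlated at 0.296, 0.101 and -0.030 in their deviations from the group means, so the numbers were not taken as a pairing, and control pools 2 and 3 correlated best with quercetin pools of another number. With a replicate block, 0 genes met the criteria, 492 had an unadjusted p under 0.05, and *Slc39a6* was at -0.43. The 3 counts or fewer of *Slc39a1* and *Slc39a7* limit what can be said of them at this depth.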

Other observations

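The ratio of *Slc39a10* counts to *Slc39a6* counts was 10.6, 8.27 and 9.76 in the controls and 14.3, 12.8 and 11.0 after quercetin. All quercetin pools stood above all control pools, with means of 9.55 ± 1.18 and 12.7 ± 1.69 (SD, n = 3 pools each). The two-sided exact permutation p was 0.1, the smallest this design allows, and the ratio was chosen after the values were seen, so it is a description with no call. *Mt2* had 45, 4 and 8 counts in the controls and 10, 8 and 0 after quercetin, with control pool 1 high and the groups overlapping. Of its exon length, 73.5% overlaps *Gm45774* on the other strand, which itself had 7, 3 and 1 counts in the controls and 3, 1 and 0 after quercetin. How strand was handled in counting is not given, so the gene that a read from the shared stretch came from cannot be told.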
